A study of Mus musculus with 16 samples.

Results

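The 10 genes described here are the cyclins that carry a cell through G1 and the inhibitors that hold it there: Ccnd1, Ccnd2, Ccnd3, Ccne1, Cdkn1a, Cdkn1b, Cdkn1c, Cdkn2a, Cdkn2b and Cdkn2c. They were chosen by name as a pathway, without a threshold on any value, and are 10 of the 54193 annotated genes whose transcripts are listed in the files. All 10 passed the filter on low counts that left 14838 genes for testing.

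The cells were mBMEC, endothelial cells of the small vessels of the mouse brain, taken from adult C57BL/6J mice 8 to 10 weeks old that carried Cdh5(PAC)-CreERT2 and floxed Pdcd10 alleles (Pdcd10 fl/fl). Pdcd10, also called Ccm3, is a gene whose loss in endothelial cells gives rise to cerebral cavernous malformations, and the Cre recombinase was driven by the promoter of the endothelial gene Cdh5. Every group carried both alleles: the KO cells received 4-hydroxytamoxifen to activate Cre and the WT cells did not, so the drug used for recombination and the loss of the gene cannot be told apart in KO against WT. The 6 groups were WT (n = 3), WT with 10 µM propranolol (WT+P, n = 2), WT with 100 nM rapamycin (WT+R, n = 2), KO (n = 3), KO with propranolol (KO+P, n = 3) and KO with rapamycin (KO+R, n = 3). Both drugs were given for 24 h to cells that had been selected with puromycin, and the study describes its cultures of these cells as pooled from several brains. Poly(A) RNA was sequenced, and each of the 16 libraries held between 18830503 and 26203339 estimated counts. Levels are given in CPM, a count relative to its library total, when 1 gene is followed across libraries, and in TPM, which also corrects for transcript length, when genes are compared with each other.

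D-type cyclins rise when growth factors reach a resting cell, and bind the kinases CDK4 and CDK6. These kinases begin to phosphorylate the retinoblastoma protein, E2F factors are freed, and E2F drives Ccne1, whose product activates CDK2 and commits the cell to S phase. Inhibitors act in opposition: the INK4 proteins (from Cdkn2a, Cdkn2b and Cdkn2c) bind CDK4 and CDK6, while the Cip/Kip proteins p21, p27 and p57 (from Cdkn1a, Cdkn1b and Cdkn1c) bind complexes of cyclin and kinase. Rapamycin inhibits the growth kinase complex mTORC1, and propranolol blocks beta-adrenergic receptors.

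The deleted gene was examined first. Pdcd10 stood at 11.5, 31.1 and 47.0 CPM in WT libraries 1, 2 and 3, at 60.8 and 32.5 in WT+P, at 52.0 and 27.7 in WT+R, at 9.72, 11.0 and 9.73 in KO, at 16.7, 13.9 and 13.1 in KO+P and at 8.37, 7.83 and 9.53 in KO+R. The library labelled WT replicate 1 therefore lay within the range of the KO libraries, unlike the 6 other WT libraries, which lay above all 9 KO libraries. In KO against WT, the log2 fold change of Pdcd10 was -1.56 ± 0.40 (SE; edgeR's quasi-likelihood test, Benjamini-Hochberg adjusted p = 0.42). Without the library labelled WT replicate 1 it was -1.96 ± 0.30 (adjusted p = 0.13 by the same edgeR test). With the replicate number as a block, explained below, it was -1.52 ± 0.41 with all libraries (edgeR adjusted p = 0.119) and -2.02 ± 0.24 without that library (adjusted p = 0.0142). Averaged over the 3 treatments with the block, the log2 fold change of Pdcd10 was -1.85 ± 0.25 (edgeR adjusted p = 0.00197). Where an edgeR call with the block described below was lost without the library labelled WT replicate 1, its log2 fold change without that library is given. Where 5 pairs of a drug library and its untreated library are counted, 1 pair uses that library and 4 do not.

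The endothelial identity of the cells was checked with 10 marker genes, whose summed level was between 3786 and 8376 TPM. Cldn5, a tight junction protein of brain endothelium, was the most abundant of them at a mean of 1727 TPM. Mural cell markers were also present: their 8 genes summed to 90.9, 915 and 245 TPM in WT, 435 and 1547 in WT+P, 1388 and 2583 in WT+R, 61.5, 227 and 147 in KO, 139, 470.4 and 114 in KO+P and 376, 336 and 253 in KO+R, mostly from Tagln and then Acta2, the contractile genes of the list. The other 6 mural markers, among them the pericyte genes Rgs5 and Kcnj8, were at most 6.59 CPM in any library. The sum was higher in 3 of the 4 WT libraries given a drug than in any other library, and in KO cells the 3 KO+R libraries lay above the 3 KO libraries. Its part in the drug differences was not tested. Fibroblast markers (5 genes, at most 53.9 TPM, led by Col1a1, Lum at 0), microglia and macrophage markers (6 genes, at most 41.2 TPM, led by Cd68, P2ry12 at 0), astrocyte markers (4 genes, at most 4.95 TPM, led by Aldh1l1) and neuron markers (4 genes, at most 24.5 TPM, led by Tubb3) were low. The fibroblast sum went with the replicate number, at 3.475, 16.2 and 25.8 TPM in WT libraries 1, 2 and 3. Over all groups, libraries numbered 1 lay below those numbered 2, and these below those numbered 3. The part of fibroblast content in the differences between numbers was not tested. In these bulk samples, fewer cells of a type and less RNA per cell cannot be told apart.

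Compared per length, Ccnd1 was the most abundant of the 10 genes, with a median of 951 TPM over the 16 libraries (198.8 to 1746), followed by Cdkn1a at 838 TPM (535 to 1216). Ccnd3 (254 TPM) and Ccnd2 (134 TPM) came next, then the INK4 gene Cdkn2b (101 TPM). Cdkn1b (19.04 TPM), Ccne1 (15.3 TPM), Cdkn2a (14.4 TPM) and Cdkn2c (12.5 TPM) formed a low group, and Cdkn1c (2.49 TPM) was last. The ranges of neighbours in this order overlapped except at 2 steps: the lowest Cdkn1a library lay above the highest Ccnd3 library (407 TPM), and the lowest Cdkn2b library (71.0 TPM) above the highest Cdkn1b library (33.6 TPM). Ccne1 varied most, 20.9-fold between its lowest and highest library, and Cdkn1a least, 2.27-fold. Ccnd1 gave between 42.5% and 77.5% of the summed D-cyclin TPM. Its lowest shares, 42.5% and 44.6%, were in the libraries of WT+P and KO+P numbered 1.

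**Figure D1:**
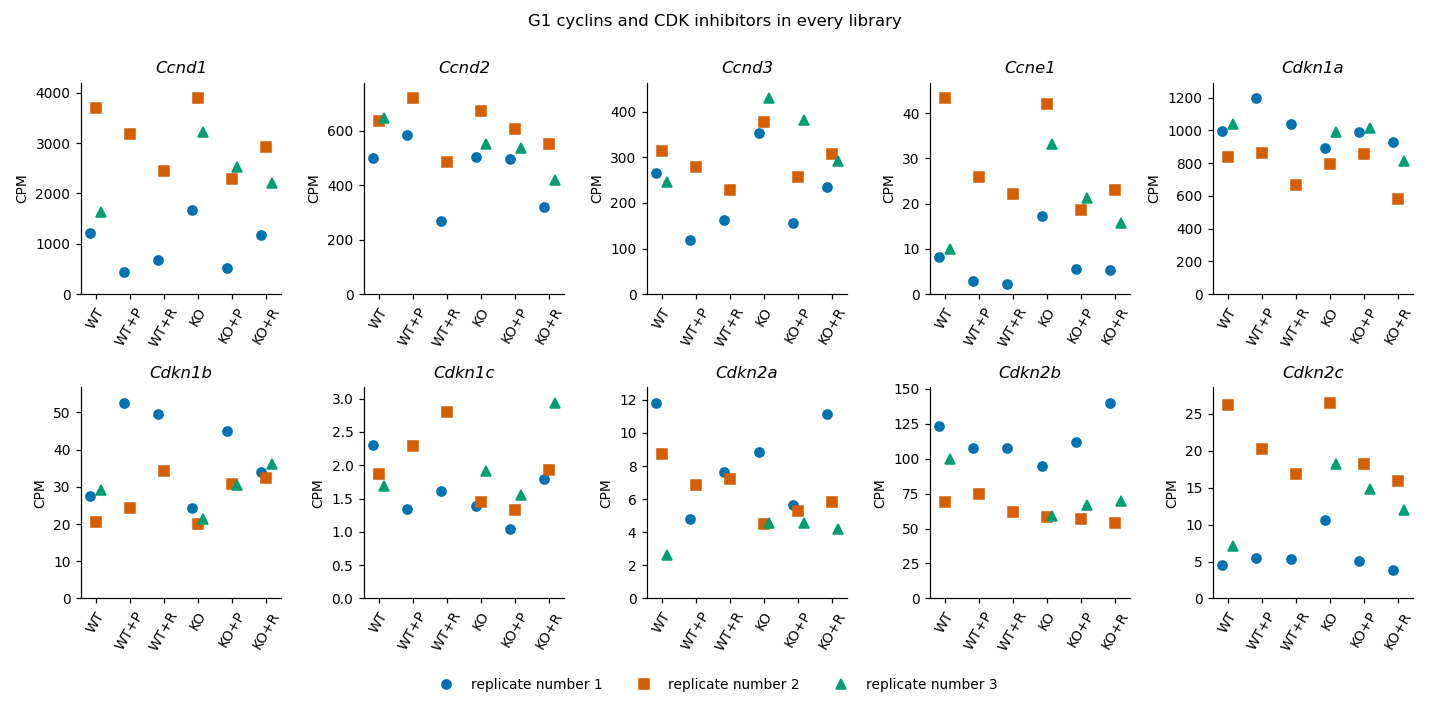
Level of each of the 10 genes in CPM (linear axis from 0) in every library, by group, with the symbol and colour giving the replicate number. Circles (number 1) lie lowest and squares (number 2) mostly highest for Ccnd1, Ccne1 and Cdkn2c, whereas Cdkn1b is lower in all 3 KO libraries (19.9 to 24.3 CPM) than in any KO library with a drug (30.4 to 45.0 CPM).

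Much of this variation went with the replicate number in the library labels rather than with genotype or drug. For Cdkn2c and Cdkn2b, 79.3% and 78.3% of the variance of log2 CPM went with the number and 12.9% and 13.1% with the group; for Ccnd1 the shares were 73.6% and 18.1%, and for Ccne1 67.2% and 24.5%. The median gene had 23.4% with the number and 44.7% with the group. Cdkn1b (28.8% and 57.2%) and Ccnd2 (34.9% and 56.5%) were the members with the most variance by group. Libraries with the same number deviated together across the genome, so each comparison was fitted both without and with the number as a block.

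**Figure D2:**
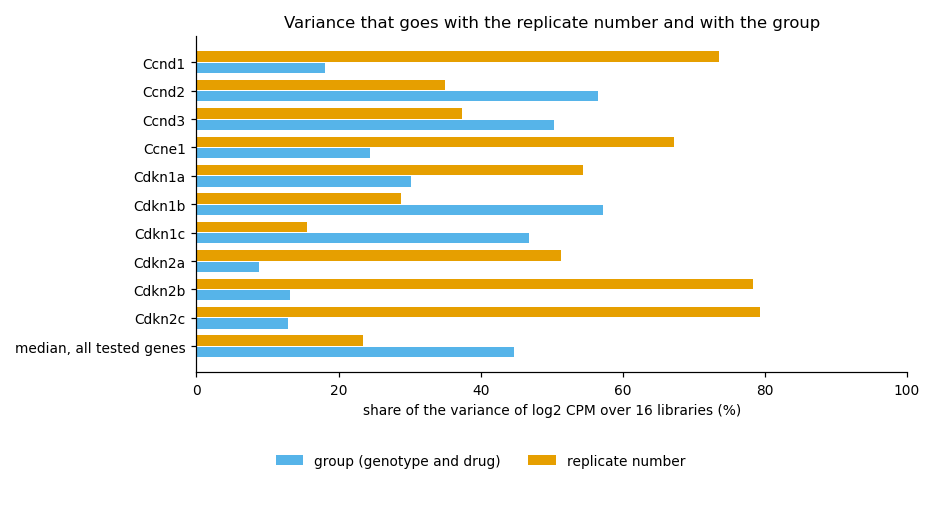
Share of the variance of log2 CPM over the 16 libraries (x axis, %) that goes with the replicate number (orange) and with the group (blue), for each of the 10 genes and for the median tested gene. Most of the variance goes with the number for Ccnd1 (73.6%), Cdkn2b (78.3%) and Cdkn2c (79.3%), against 23.4% for the median gene.

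A gene was called when its adjusted p was under 0.05 and its fold change above 1.5. Without the block, edgeR's quasi-likelihood test called 0 of the 10 genes in each of the 6 pairwise comparisons. The median log2 fold change of the 10 was -0.08 in KO against WT, -0.24 in KO+P against KO, -0.31 in KO+R against KO, -0.10 in WT+P against WT and -0.19 in WT+R against WT, and that of all tested genes lay between -0.02 and 0.00. The share of all tested genes called was 0.00674% in KO against WT, in KO+P against KO and in WT+P against WT, 1.51% in KO+R against KO, 1.4% in WT+R against WT and 4.08% in KO+R against KO+P. At an unadjusted p under 0.05, no member passed in KO against WT (6.07% of all tested genes) or WT+P against WT (9.87%). Cdkn1b passed in KO+P against KO (12.6%), KO+R against KO (12.5%) and WT+R against WT (12.6%). Ccnd2 passed in WT+R against WT and Cdkn1c in KO+R against KO+P (21.1%). DESeq2 without the block also called 0 of the 10 in these comparisons, where it called 63 to 1131 of the 27209 genes it tested. Without the library labelled WT replicate 1, 0 of the 10 were called, where 0 to 535 of 14831 tested genes were. With the block, edgeR called Cdkn1b in KO+R against KO (background 4.98% of tested genes) and Ccnd2 in WT+R against WT (background 4.56%). It called 0 members in KO against WT (0.182%), KO+P against KO (0.142%), WT+P against WT (0.0809%) and KO+R against KO+P (9.62%). In these 4 comparisons 2, 5, 1 and 3 members had an unadjusted p under 0.05, as did 13.8%, 25.0%, 13.4% and 31.3% of all tested genes. DESeq2 with the block called 3 members in KO+P against KO (Ccnd1, Ccne1 and Cdkn1b), 3 in KO+R against KO (Ccne1, Cdkn1b and Cdkn2c) and 2 in WT+R against WT (Ccnd2 and Cdkn1b), with 3.41%, 4.08% and 3.57% of the 27228 genes it tested called in the same comparisons. DESeq2 also tested the genes that the filter on low counts kept from edgeR, so its shares and those of edgeR have unlike denominators. When 1 library was left out of the edgeR fit with the block, 0 to 4 members were called in KO+P against KO. The 4 (Ccnd1, Ccnd3, Ccne1 and Cdkn1b) were called without KO+P replicate 3, where the share of all tested genes called was 10.7%. In KO+R against KO the range was 0 to 3, and the 3 (Ccne1, Cdkn1b and Cdkn2c) were called without WT replicate 3, where the share was 6.06%.

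**Figure D3:**
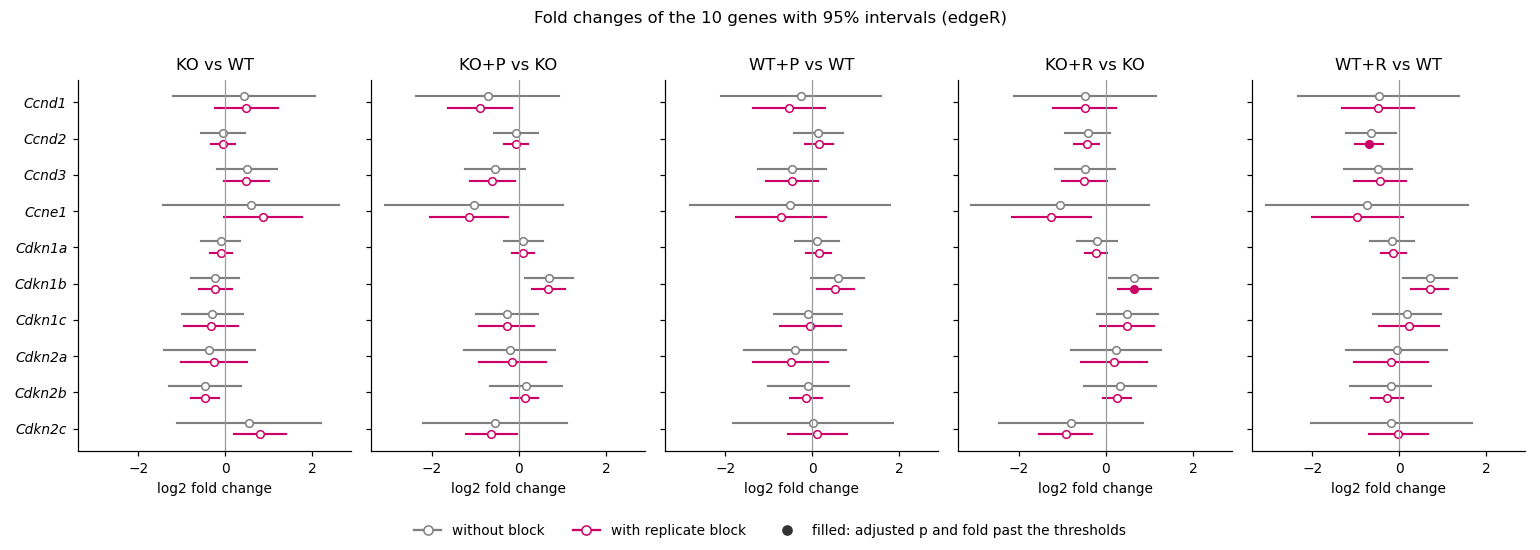
Log2 fold change (x axis) of each gene with its 95% interval in 5 comparisons, from edgeR without the block (grey) and with the replicate block (magenta), where filled points passed both thresholds. Only 2 points are filled, Cdkn1b in KO+R vs KO (0.65) and Ccnd2 in WT+R vs WT (-0.70), and the intervals of Ccnd1, Ccne1 and Cdkn2c narrow with the block.

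The D cyclins were lower with rapamycin in all 5 matched pairs, as were 22.9% of all tested genes, and of the 3 D cyclins only Ccnd2 was called with rapamycin by edgeR with all libraries, in WT cells with the block. Ccnd1 encodes cyclin D1, the D cyclin most tied to growth factor signals, and lies at chr7:144483668-144493662 on the minus strand (GRCm39). It measured 1214, 3687 and 1627 CPM in WT, 442 and 3177 in WT+P, 686 and 2452 in WT+R, 1667, 3887 and 3210 in KO, 521, 2277 and 2526 in KO+P and 1181, 2926 and 2209 in KO+R. The groups overlapped throughout, and the library numbered 1 was the lowest in every group. Within a number, Ccnd1 was lower with rapamycin by 0.41 to 0.82 on the log2 scale in 5 of 5 pairs and lower with propranolol by 0.22 to 1.68 in 5 of 5 pairs. The rapamycin log2 fold change in KO cells was -0.47 ± 0.76 (SE) without the block and -0.49 ± 0.33 with it (edgeR, adjusted p = 0.879 and 0.437). Of its annotated exonic bases, 48.4% also belong to LTO1 on the other strand, and the libraries were unstranded, so reads from the pair cannot be told apart there. The shared part was 29.0% for Cdkn1c, 15.8% for Ccnd2 and 12.5% for Cdkn1a, and at most 7.7% for the other members.

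Ccnd2, encoding cyclin D2 (chr6:127102125-127129156, minus strand), measured 500.0, 636 and 649 CPM in WT, 587 and 720.1 in WT+P, 268 and 487 in WT+R, 504, 672 and 553 in KO, 498, 607 and 537 in KO+P and 321, 551 and 419 in KO+R. Both WT+R libraries lay below all 3 WT libraries, while 1 KO+R library lay among the KO libraries. With the block, Ccnd2 fell by 0.70 on the log2 scale in WT+R against WT (SE 0.15, 95% interval -1.03 to -0.36, edgeR adjusted p = 0.0209), a 1.62-fold decrease. Without the block the adjusted p was 0.303. The call rests on 2 libraries. Leaving out the library labelled WT replicate 1 gave -0.69 (adjusted p = 0.0703 by edgeR with the block), where 2.73% of all tested genes were called. Leaving out WT+R replicate 1 gave -0.49 and no call, and fewer of all tested genes were called there than with all libraries. The call of Ccnd2 held in the other 14 of 16 such fits, and most of these 14 left out a library of neither WT nor WT+R. Where a WT+R library was left out, the lone WT+R library was assumed to vary like the other groups. The markers Acta2 (2.82 ± 0.59), Tagln (2.50 ± 0.61) and Emcn (0.85 ± 0.18) were called higher and Cd68 (-1.39 ± 0.34) lower in the same fit of WT+R against WT, with edgeR adjusted p of 0.0176, 0.035, 0.0176 and 0.0389. Of these, Emcn alone was called without the library labelled WT replicate 1. Acta2 was then at 2.35, Tagln at 1.97 and Cd68 at -1.36 on the log2 scale (edgeR adjusted p = 0.0675, 0.11 and 0.0962). Emcn is 1 of the 10 endothelial markers, whose summed TPM was lower in both WT+R libraries than in the 3 WT libraries. The part of the markers in the Ccnd2 difference was not tested. In KO cells the rapamycin log2 fold change of Ccnd2 was -0.44 ± 0.13 (adjusted p = 0.0633 by edgeR with the block). With propranolol, Ccnd2 was higher in both WT pairs (0.23 and 0.18 on the log2 scale) and lower in all 3 KO pairs (0.01 to 0.15 lower). The test of that difference, the interaction of propranolol and genotype, gave -0.21 ± 0.35 (edgeR adjusted p = 1).

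Ccnd3, encoding cyclin D3 (chr17:47815767-47910624, plus strand), measured 265, 314 and 246 CPM in WT, 119.5 and 278 in WT+P, 163 and 228 in WT+R, 354, 377 and 429 in KO, 156, 257 and 382 in KO+P and 234, 308 and 291 in KO+R. The 3 KO libraries lay above the 3 WT libraries, and the rapamycin libraries of each genotype lay below the untreated ones, whereas the propranolol groups overlapped with the untreated ones. The difference between KO and WT was 0.49 ± 0.32 on the log2 scale without the block and 0.48 ± 0.24 with it (edgeR adjusted p = 0.98 and 0.398), and Ccnd3 was not called. Without the library labelled WT replicate 1 it was 0.46 ± 0.37 and 0.68 ± 0.26. Within a number it was lower with rapamycin by 0.29 to 0.70 in 5 of 5 pairs and lower with propranolol by 0.17 to 1.19 in 5 of 5.

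Ccne1, encoding cyclin E1, the partner of CDK2 at the G1/S boundary, lies at chr7:37797404-37808264. Its level was 8.33, 43.3 and 10.0 CPM in WT, 2.91 and 25.8 in WT+P, 2.28 and 22.2 in WT+R, 17.2, 42.0 and 33.1 in KO, 5.54, 18.6 and 21.2 in KO+P and 5.35, 23.1 and 15.8 in KO+R. Libraries numbered 1 were lowest in every group, and every drug group overlapped with its untreated group. Within a number, Ccne1 was lower with rapamycin by 0.86 to 1.83 and lower with propranolol by 0.64 to 1.62, in 5 of 5 pairs each. In KO against WT the pairs gave 1.04, -0.04 and 1.72, the first of them with the library labelled WT replicate 1. The log2 fold change was 0.58 ± 0.94 without the block and 0.87 ± 0.41 with it (edgeR adjusted p = 0.996 and 0.378), and it was 0.20 ± 1.03 and 1.04 ± 0.49 when that library was left out.

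Among the Cip/Kip inhibitors, Cdkn1b was the one called, and it was higher with a drug. Cdkn1b encodes p27, which keeps cyclin E and CDK2 inactive in resting cells, and lies at chr6:134897364-134902476 on the plus strand. It measured 27.6, 20.4 and 29.2 CPM in WT, 52.6 and 24.3 in WT+P, 49.6 and 34.2 in WT+R, 24.3, 19.9 and 21.3 in KO, 45.0, 30.7 and 30.4 in KO+P and 34.0, 32.3 and 36.0 in KO+R. Both rapamycin groups and KO+P lay wholly above their untreated groups, and WT+P overlapped with WT. In KO+R against KO, Cdkn1b rose by 0.65 ± 0.17 on the log2 scale with the block (1.57-fold, 95% interval 0.28 to 1.03, edgeR adjusted p = 0.0436). Of the cell type markers, Cd68 (-1.55 ± 0.29, edgeR adjusted p = 0.00869) and Csf1r (0.190 to 0.465 CPM in KO and 0 to 0.0410 in KO+R) were called lower in the same fit, and their part in the Cdkn1b difference was not tested. Without the block the same difference was 0.64 ± 0.26 (adjusted p = 0.308), and when the fit held only these 2 groups it was 0.66 and passed. With the block it passed in 7 of 16 fits that left out 1 library each, over which the log2 fold change was 0.56 to 0.82 and the adjusted p 0.0143 to 0.172, and without the library labelled WT replicate 1 it was 0.67 and passed. Of the fits that left out a KO or KO+R library, only that without KO+R replicate 1 passed. The other passing fits left out libraries outside this comparison. In WT+R against WT the log2 fold change of Cdkn1b was 0.70 ± 0.19 (adjusted p = 0.0615 with the block), in KO+P against KO 0.68 ± 0.17 (adjusted p = 0.0835) and in WT+P against WT 0.53 ± 0.20 (adjusted p = 0.346), all by edgeR with the block. The KO drug groups share their untreated libraries, as do the WT drug groups, so these values are not independent of each other.

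The Cdkn1b start region is shown because Cdkn1b is the member whose drug difference was called most often. The stretch covers the 120 bases before the annotated start of its canonical transcript, Cdkn1b-202, which held 26.4% of the gene's counts (chr6:134897244-134897363, plus strand, GRCm39 with GENCODE M39). Cdkn1b-201, which held 71.5%, starts at the same base (134897364). Capitals mark a GC box (GGGCGG) and a CCAAT box (CCAAT), words searched on both strands.
Cdkn1b-202 upstream: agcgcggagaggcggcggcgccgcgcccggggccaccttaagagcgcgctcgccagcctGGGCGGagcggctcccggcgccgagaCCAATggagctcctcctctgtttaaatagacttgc
In the 250 bases before the start, GGGCGG was found for 7 of the 10 members (36.3% of 21770 protein-coding starts) and CCAAT for 3 (36.5%). A FOXO word (GTAAACA) was found for 0 of 10 members (2.72% of starts), and a CRE word (TGACGTCA) for Cdkn2b alone (1.69% of starts). These matches describe letters in a window and do not show binding.

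Cdkn1a (chr17:29309936-29319701, plus strand) encodes p21, the inhibitor known as a target of p53. It measured 999, 838 and 1040 CPM in WT, 1196 and 860.5 in WT+P, 1040 and 668 in WT+R, 891, 793 and 988 in KO, 989, 856 and 1017 in KO+P and 927, 581 and 815 in KO+R. All groups overlapped, and libraries numbered 2 were lowest in each group. Against WT libraries of the same number and treatment, KO libraries were lower in 7 of 7 pairs, by 0.01 to 0.27 on the log2 scale, as were 7.62% of all tested genes, while 6.98% were higher in all 7. Of the 6 pairs that do not use the library labelled WT replicate 1, Cdkn1a was lower in 6, as were 9.0% of tested genes. In KO against WT the log2 fold change was -0.10 (95% interval -0.36 to 0.15, edgeR with the block, adjusted p = 0.754). Cdkn1c, encoding p57 (chr7:143012069-143014806, minus strand), was the lowest member at 1.04 to 2.94 CPM. Its KO+R libraries (1.80, 1.93 and 2.94 CPM) lay above its KO+P libraries (1.04, 1.33 and 1.55 CPM), a difference of 0.77 ± 0.33 on the log2 scale (edgeR adjusted p = 0.202 without the block and 0.0972 with it).

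**Figure D4:**
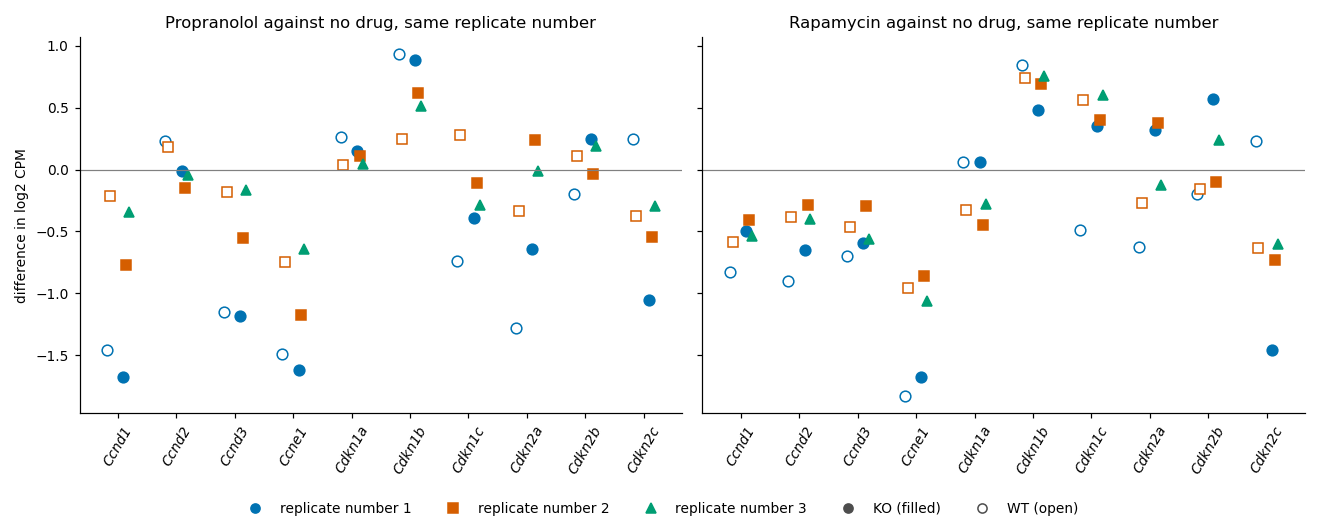
Difference in log2 CPM between a drug-treated library and the untreated library of the same genotype and replicate number, for propranolol (left) and rapamycin (right), with filled symbols for KO and open symbols for WT. With rapamycin all 5 points lie below 0 for Ccnd1, Ccnd2, Ccnd3 and Ccne1 and above 0 for Cdkn1b (0.48 to 0.84). For most genes the single point farthest from 0 is numbered 1, but for Cdkn1b with rapamycin the KO point numbered 1 is the nearest.

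Because for several members the pairs within a number pointed the same way in both genotypes, the drug effects were also averaged over WT and KO cells with the block, a contrast chosen after the data had been seen. Under this contrast rapamycin raised Cdkn1b by 0.68 ± 0.13 on the log2 scale (1.6-fold, 95% interval 0.39 to 0.96, edgeR adjusted p = 0.00443). The call held narrowly in the fit without the block, where the lowest edgeR adjusted p of the 10 members was 0.0487. With the block it held in all 16 fits that left out 1 library, with a log2 fold change of 0.64 to 0.75. Ccne1 fell by 1.11 ± 0.32 (2.16-fold, edgeR adjusted p = 0.031), a call kept in 8 of 16 such fits, and most of the 8 left out a propranolol library outside the contrast. It was lost without the library labelled WT replicate 1 (-1.02, adjusted p = 0.0648) and was weakest without WT+R replicate 1 (-0.87, adjusted p = 0.155). Ccnd2 had a log2 fold change of -0.57 ± 0.10 (edgeR adjusted p = 0.00263), which passed the p threshold but at 1.48-fold not the fold threshold. Of all tested genes, 9.81% were called under this contrast. Cell type markers were also called under it. The endothelial genes Flt1 (0.61 ± 0.12) and Emcn (0.60 ± 0.12) rose, with edgeR adjusted p of 0.00571 and 0.00522. The list as a whole went the other way: its summed TPM was lower in every rapamycin library than in the untreated library of its genotype and number. The mural genes Acta2 (2.26 ± 0.41) and Tagln (2.04 ± 0.42) rose and Notch3 (-1.23 ± 0.35) fell, with edgeR adjusted p of 0.00306, 0.00651 and 0.0294. The macrophage gene Cd68 (-1.47 ± 0.22) and the astrocyte gene Aldh1l1 (-1.02 ± 0.25) fell, with edgeR adjusted p of 0.00121 and 0.0158. Csf1r, also of macrophages, was called lower at no more than 0.568 CPM in any library. Of these calls, that of Notch3 was lost without the library labelled WT replicate 1 (-1.10, adjusted p = 0.0666). The part of these markers in the rapamycin differences was not tested. By direction alone, 4 members (Ccnd1, Ccnd2, Ccnd3 and Ccne1) were lower with rapamycin in 5 of 5 pairs, as were 22.9% of tested genes, and 1 (Cdkn1b) was higher in 5 of 5, as were 18.5%.

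For propranolol the same contrast called 1 member, Cdkn1b, at 0.60 ± 0.13 on the log2 scale (1.52-fold, edgeR adjusted p = 0.0325), with 4.19% of all tested genes called. The call was lost without the library labelled WT replicate 1 (0.55), where 0.351% of all tested genes were called. It was also lost without WT+P replicate 1 (0.40), where fewer of all tested genes were called than with all libraries. The call of Cdkn1b held in 6 of 16 fits that left out 1 library, some of them a rapamycin library outside the contrast. In 3 of these fits, without WT replicate 3, WT+P replicate 2 or KO+P replicate 3, Ccnd1, Ccnd3, Ccne1 and Cdkn1b were called, and 7.51%, 13.3% and 12.6% of all tested genes were called there. DESeq2 with the block called 3 members and 4.76% of the genes it tested. Ccnd1 (-0.71 ± 0.25), Ccnd3 (-0.54 ± 0.18) and Ccne1 (-0.93 ± 0.31) had edgeR adjusted p of 0.0872, 0.0739 and 0.0768. Without WT+P replicate 1, Ccnd1 was at -0.44 (adjusted p = 0.435) and Ccne1 at -0.73 (adjusted p = 0.367). By direction, Ccnd1, Ccnd3 and Ccne1 were lower in 5 of 5 pairs (15.4% of tested genes), and Cdkn1a and Cdkn1b higher in 5 of 5 (14.6%). Ccnd2 gave 0.04 ± 0.10 (95% interval -0.18 to 0.25) under propranolol. The 10 endothelial markers were all below 0 under this contrast, with a median of -0.54 against -0.01 for all tested genes, and Tie1, an endothelial receptor, fell by 0.59 on the log2 scale (edgeR adjusted p = 0.0253), a call lost without the library labelled WT replicate 1 (-0.48, adjusted p = 0.0723). Their summed level was lowest in the propranolol libraries numbered 1, at 3786 TPM in WT+P and 4110 TPM in KO+P. The part of these markers in the propranolol differences was not tested. In KO cells, where the drugs were compared directly, KO+R against KO+P gave -0.38 ± 0.13 for Ccnd2 (adjusted p = 0.072) and -0.03 ± 0.17 for Cdkn1b (95% interval -0.40 to 0.35), by edgeR with the block. KO against WT averaged over the 3 treatments called 0 members (4.47% of tested genes). Ccne1 and Ccnd3 had an unadjusted p under 0.05 there, as did 26.5% of all tested genes. Among the markers this average called Acta2 (-1.88 ± 0.34) and Tagln (-1.66 ± 0.34) lower and Cldn5 (0.72 ± 0.21), Cd68 (0.97 ± 0.19) and Aldh1l1 (0.98 ± 0.21) higher in KO. The summed TPM of the 10 endothelial markers was higher in KO for some pairs of the same number and treatment and lower for others. The interactions of genotype with rapamycin and with propranolol called 0 of the 10 genes and 0.0% of tested genes by edgeR. Without the block 0 members had an unadjusted p under 0.05 in either, against 0.762% and 0.721% of all tested genes. With the block, Cdkn2b and Cdkn2c did in the rapamycin interaction (1.93% of all tested genes) and 0 members in the propranolol interaction (2.84%).

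The INK4 genes varied more with the replicate number than with the group, by 51.4% against 8.83% of the variance for Cdkn2a. Cdkn2a and Cdkn2b are neighbours on chromosome 4, at chr4:89192708-89212890 and chr4:89223204-89229276. Cdkn2b, which encodes p15, a target of TGF-beta signalling, measured 123, 69.2 and 99.3 CPM in WT, 108 and 74.7 in WT+P, 107 and 61.9 in WT+R, 94.5, 58.1 and 58.6 in KO, 112, 56.5 and 66.9 in KO+P and 140.0, 54.2 and 69.3 in KO+R. Libraries numbered 1 were the highest in every group, and all groups overlapped. In KO against WT its log2 fold change was -0.47 ± 0.38 without the block and -0.47 ± 0.15 with it (edgeR adjusted p = 0.996 and 0.178), and without the library labelled WT replicate 1 it was -0.27 ± 0.43 and -0.56 ± 0.17.

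Cdkn2c, which encodes p18 (chr4:109517957-109524386, minus strand), ran the other way by number. It measured 4.55, 26.2 and 7.09 CPM in WT, 5.41 and 20.1 in WT+P, 5.37 and 16.9 in WT+R, 10.7, 26.5 and 18.2 in KO, 5.08, 18.2 and 14.8 in KO+P and 3.81, 15.9 and 12.0 in KO+R. Libraries numbered 1 were the lowest in each group and those numbered 2 the highest, and all drug groups overlapped with their controls. With rapamycin the 3 KO pairs were lower by 0.60 to 1.46 and the WT pairs were 0.23, with the library labelled WT replicate 1, and -0.63. The difference between these effects was -0.91 ± 0.41 with the block (edgeR adjusted p = 1).

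Cdkn2a makes 2 proteins from 1 locus. Transcript Cdkn2a-201 starts with the exon for p16INK4a and Cdkn2a-202 with a more distant exon for p19ARF, which stabilises p53, and both are spliced to the same second exon (chr4:89194882-89195222), where they are read in different frames. The coding part of the first exon has 126 bases in Cdkn2a-201 and 190 in Cdkn2a-202, that is 0 and 1 base over whole codons. The sequences below (minus strand, GRCm39) are shown because the first exons are what tells the transcripts apart, with the start codon in capitals. The third line is the start of the shared exon, with no capitals.
Cdkn2a-201 first exon, chr4:89200289-89200348: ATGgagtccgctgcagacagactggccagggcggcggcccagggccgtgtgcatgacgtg
Cdkn2a-202 first exon, chr4:89212701-89212760: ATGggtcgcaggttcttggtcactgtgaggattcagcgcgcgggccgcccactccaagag
Cdkn2a shared second exon, chr4:89195163-89195222: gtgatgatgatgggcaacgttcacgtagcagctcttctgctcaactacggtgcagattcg
The 120 bases before each start follow, with capitals for an E2F word and a GC box (GGGCGG).
Cdkn2a-201 upstream, chr4:89200430-89200549: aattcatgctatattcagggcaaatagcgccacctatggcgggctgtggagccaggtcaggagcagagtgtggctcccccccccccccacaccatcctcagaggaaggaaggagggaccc
Cdkn2a-202 upstream, chr4:89212891-89213010: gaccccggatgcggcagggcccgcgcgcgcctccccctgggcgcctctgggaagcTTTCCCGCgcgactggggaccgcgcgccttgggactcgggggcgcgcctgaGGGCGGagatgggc
The E2F words searched, on both strands, were TTTCCCGC, TTTCGCGC, TTTGCCGC and TTTGGCGC, and the GC box could share letters with them only in part. An E2F word began 65 bases before the start of Cdkn2a-202 and none lay in the 250 bases before Cdkn2a-201. Such a word was present before 2.28% of protein-coding starts and, by the canonical start of each gene, for 1 member (Ccnd3).

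The p16INK4a transcript measured 9.67, 3.76 and 0.775 CPM in WT, 3.83 and 4.31 in WT+P, 5.50 and 4.24 in WT+R, 6.82, 2.76 and 2.35 in KO, 4.94, 3.41 and 2.36 in KO+P and 8.88, 4.08 and 1.57 in KO+R. By replicate number it averaged 6.61 ± 2.29 (SD, n = 6), 3.76 ± 0.59 (n = 6) and 1.77 ± 0.76 (n = 4) CPM for numbers 1, 2 and 3, and number 3 lay below the range of numbers 1 and 2. The p19ARF transcript was flatter, at 1.71 ± 0.67, 2.64 ± 1.24 and 2.22 ± 0.31 CPM for the same numbers, and their ranges overlapped. The gene as a whole measured 11.8, 8.70 and 2.62 CPM in WT and 8.87, 4.48 and 4.57 CPM in KO, a log2 fold change of -0.37 ± 0.48 without the block and -0.25 ± 0.35 with it (edgeR adjusted p = 0.996 and 0.813). Without the library labelled WT replicate 1 these were 0.07 ± 0.51 and -0.02 ± 0.40. Over all 16 libraries Cdkn2a lay between 2.62 and 11.8 CPM, and it was not called in any comparison. Reads from the shared exons were divided between the transcripts by estimation, so the split carries more error than the gene total.

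**Figure D5:**
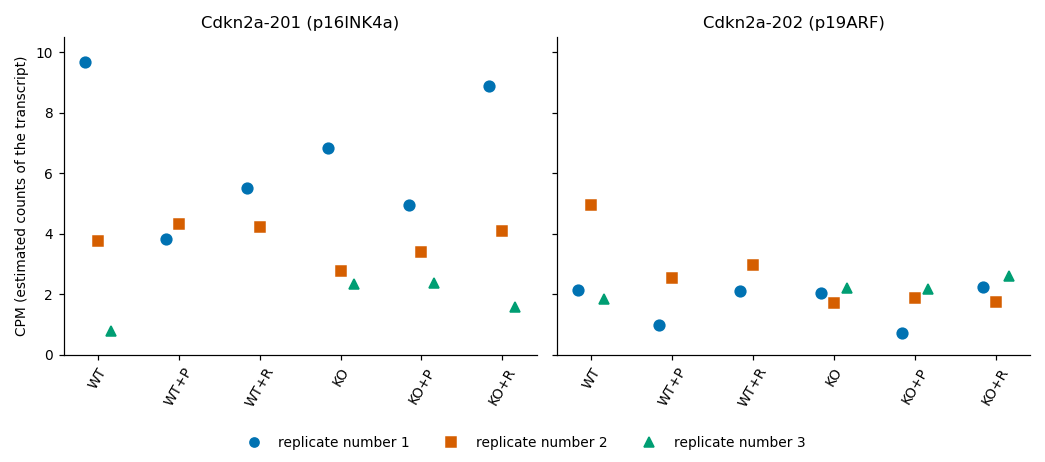
Estimated CPM (linear axis from 0) of the p16INK4a transcript (left) and the p19ARF transcript (right) of Cdkn2a in every library, by group and replicate number. The p16INK4a transcript runs from 0.775 to 9.67 CPM, with triangles (number 3) lowest in WT, KO, KO+P and KO+R, while the p19ARF transcript runs from 0.720 to 4.96 CPM.

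The rest of the pathway was followed in 7 lists of genes. Of 13 pocket proteins and E2F factors, 1 was called higher without the block in KO+R against KO (1.51% of all tested genes called) and in KO+R against KO+P (4.08%), and it was Rb1, which encodes the retinoblastoma protein. Rb1 was the single gene of the 7 lists called without the block in the 6 pairwise comparisons. It ranged over 24.3 to 32.0 CPM in WT, 28.9 to 29.6 in WT+P, 46.4 to 46.8 in WT+R, 24.4 to 27.5 in KO, 19.6 to 26.9 in KO+P and 38.0 to 52.8 in KO+R. The rapamycin groups lay above all other libraries. Rb1 rose by 0.82 ± 0.15 on the log2 scale in KO+R against KO (edgeR adjusted p = 0.0196), by 0.97 ± 0.15 in KO+R against KO+P (adjusted p = 0.00458) and, with the block, by 0.74 ± 0.12 in WT+R against WT (adjusted p = 0.00507). The call of Rb1 held in these 3 comparisons without the library labelled WT replicate 1. With rapamycin averaged over both genotypes and the block, E2f1 (-0.63 ± 0.18) and E2f2 (-1.81 ± 0.32) fell, with edgeR adjusted p of 0.0283 and 0.00295, beside the rise of Rb1 (0.78 ± 0.08), where 9.81% of all tested genes were called. Without the library labelled WT replicate 1, E2f1 was not called (-0.59 ± 0.19, edgeR adjusted p = 0.0619), and E2f2 and Rb1 were.

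Where a list had no call in KO+R against KO without the block, the 2 genes with the smallest p were Cdk2 (-0.57 ± 0.18) and Cdc25a (-0.25 ± 0.15) among the G1 kinases and activators, and Cdkn2d (-0.66 ± 0.22) and Cdkn3 (-1.21 ± 1.06) among the other cyclins and inhibitors. They were Fbxw7 (-0.25 ± 0.11) and Cul1 (0.20 ± 0.12) among the turnover genes, Foxo4 (0.42 ± 0.15) and Myc (0.76 ± 0.31) among the upstream factors, Bbc3 (0.91 ± 0.22) and Eda2r (-0.46 ± 0.12) among the p53 genes, and Pcna (-0.64 ± 0.30) and Plk1 (-1.61 ± 1.03) among the genes of cycling cells. None of these passed without the block (edgeR adjusted p from 0.0644 for Bbc3 upward). With the block, Bbc3 rose in KO+R against KO (0.90 ± 0.12, edgeR adjusted p = 0.00156), and Foxm1 (-1.16 ± 0.15, adjusted p = 0.00168) and E2f2 (-1.67 ± 0.41, adjusted p = 0.032) fell.

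Under the averaged contrast for rapamycin with the block, 0 of 7 G1 kinases and activators were called, against 9.81% of all tested genes. Cdk2, the partner of cyclin E, passed the p threshold alone (-0.44 ± 0.10, edgeR adjusted p = 0.0143). Of 6 turnover genes, 1 fell, Skp2, the F-box protein that marks p27 for degradation (-0.59 ± 0.17, adjusted p = 0.0279). Without the library labelled WT replicate 1, Skp2 was not called (-0.56 ± 0.18, edgeR adjusted p = 0.0635). Of 8 factors upstream of D cyclins and inhibitors, 1 fell, the cell cycle factor Foxm1 (-1.03 ± 0.12), and Myc gave 0.75 ± 0.24 (adjusted p = 0.0528). Of 14 p53 genes other than Cdkn1a, 1 rose, Bbc3, which promotes apoptosis (0.77 ± 0.09), and the list median was -0.21 against -0.02 for all tested genes. Of 3 other cyclins and inhibitors (Ccne2, Cdkn2d and Cdkn3), 0 were called, with Cdkn2d at -0.48 ± 0.14 (adjusted p = 0.0305) and Cdkn3 at -1.21 ± 0.50 (adjusted p = 0.116). For propranolol, the averaged contrast called 1 kinase higher (Cdk6, 0.62 ± 0.16), Ccne2 lower (-1.23 ± 0.33) and Plk2 higher (0.68 ± 0.15), where 4.19% of all tested genes were called. None of these 3 was called without the library labelled WT replicate 1, where 0.351% of all tested genes were called. Their log2 fold changes were then 0.52, -1.19 and 0.64 (edgeR adjusted p = 0.125, 0.121 and 0.116). For KO against WT over all treatments it called E2f2 higher (1.00 ± 0.28) and Foxo1 (-0.59 ± 0.08) and Pmaip1 (-0.59 ± 0.14) lower, where 4.47% of all tested genes were called. These 3 calls held without that library.

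Genes expressed by cycling cells moved with the replicate number as Ccnd1, Ccne1 and Cdkn2c did. The 10 genes of this list, which include Mki67, Pcna, Mcm2 and Top2a, summed to 163, 622 and 209 TPM in WT, 141.9 and 379 in WT+P, 123 and 333 in WT+R, 286, 606 and 450.3 in KO, 145 and 281 and 305 in KO+P and 125 and 309 and 223 in KO+R. Libraries numbered 1 were lowest in each group, and each drug library lay below the untreated library of its genotype and number. Without the block 0 of the 10 were called in any comparison. With the block, 3 of 10 fell in KO+R against KO (4.98% of all tested genes called), which were Mcm2 (-0.85 ± 0.21), Ccna2 (-1.89 ± 0.48) and Ccnb1 (-1.66 ± 0.44), with edgeR adjusted p of 0.0339, 0.0393 and 0.044. Ccnb1 was not called there without the library labelled WT replicate 1 (-1.64, adjusted p = 0.0582 by edgeR). With rapamycin averaged over both genotypes and the block, where 9.81% of all tested genes were called, 6 of 10 fell (Mcm2, Top2a, Ccna2, Plk1, Mki67 and Ccnb1, from -0.68 for Mcm2 to -1.57 for Ccna2), with a list median of -1.23. With propranolol, where 4.19% of all tested genes were called, 2 of 10 fell (Mcm2 and Plk1). Without the library labelled WT replicate 1, Mki67 was not called with rapamycin (-1.09, edgeR adjusted p = 0.0942). Nor were Mcm2 (-0.67) and Plk1 (-1.41) called with propranolol in that fit (edgeR adjusted p = 0.111 and 0.12). The part of the number of cycling cells in the Ccne1 and D-cyclin differences was not tested.

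For the 3 members with the smallest p-values in the pairwise comparisons without the block, the genes of most similar pattern were found by Pearson correlation of log2 CPM over the 16 libraries, which share replicate numbers. Cdkn1b was nearest to Serinc1 (r = 0.950), Atg13 (0.943) and Slu7 (0.942). Ccnd2 was nearest to Slc39a11 (0.950), Slc39a14 (0.943) and Pde12 (0.926), and Cdkn1c to 2510039O18Rik (0.809), Gm44065 (0.809) and Fcsk (0.804).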

How the data were processed

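Salmon-format tables of 16 libraries, 1 per library, held estimated counts and TPM per transcript as deposited by the authors; no other value column was used. The submitters' processing notes name Salmon 1.5.2, Trim Galore 0.6.7, HTSeq 0.13.5, DESeq2 1.34.0 and GRCm39, and the study's methods describe alignment with STAR and counting with HTSeq, whose counts were not used here. Estimated counts, as the authors deposited them, were summed per gene with GENCODE M39 (99.12% of transcripts matched) and rounded; TPM values were summed, not tested. Libraries were poly(A) selected and unstranded, with 18830503 to 26203339 counts each.

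Counts were analysed in R 4.3.3 with edgeR 4.0.16 (filterByExpr, TMM, quasi-likelihood test, 1 mean per group over all 16 libraries, residual df 10), and calls required a Benjamini-Hochberg adjusted p under 0.05 over 14838 genes and a fold above 1.5, thresholds taken from the study's methods. A fit with the replicate number as a block (residual df 8) and DESeq2 1.42.0 were alternatives, with RLE normalization, no filter, length offsets, the compared groups alone and each library left out. CPM used TMM library sizes; for differences within a number, a prior count of 2 was added before taking log2 CPM. The labels do not say what a replicate number stands for. In each comparison same-numbered libraries deviated together (r 0.19 to 0.69 for every pair in the comparisons). Over the series the median was 0.52 for 36 same-numbered pairs (lowest 0.03) and -0.23 for 70 others. Deviations from group means cancel within a group, so the -0.23 is not independent of the 0.52. WT drug comparisons have only 2 pairs. The numbers were therefore taken to pair the libraries. The biological coefficient of variation was 32.3% without and 19% with the block. The edgeR step was tested on simulated data. The labels call the libraries biological replicates; p-values measure the spread between these libraries.

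All 10 members are named with their levels; other genes come from fixed pathway and cell type lists, with values for those called or, where none was, for those with the smallest p, and from the 3 nearest genes by correlation. The members, lists and tests were chosen with earlier results of these data known. Starts and sequences were read with Python 3.11.15 from GRCm39.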

Additional observations from a re-analysis of the deposited data

How the results depend on the processing

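No gene reversed its direction among the differences that were called by edgeR or, with the block, by DESeq2, under any alternative. The count of members called in KO+R against KO was 0 and became 1 with the replicate block, 1 when only the groups compared were fitted, 1 with the block and the library labelled WT replicate 1 left out, and 3 with DESeq2 and the block. With the block it was 0 to 3 when a library was left out, and 0 in 8 of the 16 fits. In WT+R against WT it was 0, and 1 with the replicate block (0 to 2 when a library was left out) and 2 with DESeq2 and the block; in KO+P against KO it was 0, 3 with DESeq2 and the block, and 0 to 4 with edgeR and the block when a library was left out. In WT+P against WT, leaving out 1 library gave 0 to 1 members, the 1 being Cdkn1b without WT+P replicate 2 (with the block, 8.62% of all tested genes were called there, against 0.0809% with all libraries), where the lone WT+P library was assumed to vary like the other groups. With rapamycin averaged over both genotypes the count was 2 with the block, 1 without it (where 785 of all 14838 tested genes were called, against 1456 with it) and 1 to 3 when a library was left out; with propranolol it was 1 with the block, 0 without it (235 genes called, against 622), 3 with DESeq2 and the block, and 0 to 4 when a library was left out. The 3 with rapamycin were reached without WT replicate 3 or WT+R replicate 2, where 10.8% and 7.75% of all tested genes were called. The causes were not tested. RLE normalization, no filter and length offsets moved none of these counts of members by more than 1.5 times. Without the filter and the block, 512 of all genes were called with propranolol averaged over both genotypes, against 235. In KO+P against KO the same change gave 52 genes against 1, and in WT+P against WT 36 against 1. At 18830503 to 26203339 counts a library, Cdkn1c (1.04 to 2.94 CPM) was the member with the fewest counts, which limits its precision.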
